A study of Mus musculus with 8 samples.

Results

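The Hox genes encode homeodomain transcription factors and lie in 4 clusters, Hoxa, Hoxb, Hoxc and Hoxd. They were taken as the probe sets whose platform annotation names exactly 1 gene with a Hoxa, Hoxb, Hoxc or Hoxd symbol. Where a gene had several such sets, the set with the highest mean over the 8 arrays stood for it. This gave 33 Hox genes among 18193 genes represented in that way. RefSeq lists 39 Hox symbols, so 9 of 11 Hoxa genes, 9 of 10 Hoxb genes, 7 of 9 Hoxc genes and 8 of 9 Hoxd genes were measured. Hoxb8 and Hoxd4 were represented only by probe sets that also name a neighbour, and the remaining symbols were not analysed here.

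Paralogue numbers run along each cluster, and low numbers are known to be expressed from further forward in the embryo than high numbers, with retinoic acid, Cdx factors and chromatin regulators of the Polycomb and trithorax groups among the known controls. Neural crest cells of the first pharyngeal arch, which form most of the connective tissue of the tongue, are known to be free of Hox expression. Hoxa2 is the classical Hox gene of the second arch. The muscle precursors of the tongue come from occipital somites, whose cells carry Hox genes of low number, and they lie outside the neural crest lineage.

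RNA came from whole tongue buds, the tissue that becomes the tongue, of C57BL/6J mouse embryos at embryonic day 13.5. Control embryos (n = 4) carried both floxed alleles of Alk5 (Alk5 fl/fl) and no Cre. Mutant embryos (n = 4) carried the same floxed alleles with Wnt1-Cre, a Cre driven by the Wnt1 promoter in the cranial neural crest, so cells of other lineages keep the receptor. Alk5, whose gene symbol is Tgfbr1, is the type I receptor for TGF-beta, and the series set out to learn how its loss in neural crest cells affects their exchange with muscle precursors. A group with Wnt1-Cre and intact Alk5 was not analysed here, so the transgene and the loss of the receptor cannot be told apart. In RNA of a whole bud, fewer cells of a kind and less RNA per cell cannot be told apart either.

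Values are log2 expression per probe set. They carry no detection call, and brightness depends on a set's probes, so levels of different genes were not ranked. Array medians lay between 5.96 and 6.01. As a guide to unspecific signal, 77 probe sets of olfactory and vomeronasal receptor genes, which the tongue bud is not known to use, had a 95th percentile of 5.63. Of the 33 Hox genes, 12 had a mean at or above that value, against 71.5% of all genes, and 8 lay above every array median. The Alk5 probe set itself was higher on the arrays labelled mutant, at 12.36 to 12.42 against 11.89 to 12.12, and whether its probes fall in the floxed stretch is not given in the sources used here, so it checks no label. The 6 tongue mesenchyme markers averaged 9.64 to 10.16 on control arrays and 10.02 to 10.32 on mutant arrays. Control 3 stood apart in its Y-linked genes, with a mean of 3.09 against 8.44 to 8.73 on the other 7 arrays.

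Comparison of mutant with control buds asked which Hox genes differed between the genotypes. Hoxd8 was the single Hox gene that passed, and it fell to 0.63 of the control level. None rose. In limma, 1 of 33 Hox genes (3.03%) was called at an adjusted p of 0.05, against 9.72% of all 18193 genes. That 1 fell, where 5.52% of all genes fell, and 0 rose, where 4.2% of all genes rose. Brightness bears on these shares. Of the 12 Hox genes with a mean at or above 5.63, 1 was called (8.33%) in the fit of all 18193 genes. In a separate fit of the 13000 genes at or above 5.63, with its own adjustment, 2106 were called. That is a larger share than the 9.72% of all genes. An unadjusted p under 0.05 was seen in 2 of 33 Hox genes and in 23.8% of all genes. Groups did not overlap in 1 of the 33, lower in mutants, against 17.8% of all genes in either direction and 8.87% lower in mutants. The log2 changes ran from −0.67 for Hoxd8 to 0.12 for Hoxb2, with a median of −0.04 beside a median of −0.01 over all genes.

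Missing the threshold does not show that a gene was the same in both groups, so the intervals are given. For 28 of the 33 Hox genes the 95% interval of the log2 change lay wholly between −0.5 and 0.5. The remaining 5 were Hoxd8 and the genes with the widest spread between arrays of a group, namely Hoxa2, Hoxb2, Hoxd1 and Hoxd3. For the 14 genes of paralogue numbers 9 to 13, which pattern the posterior trunk, limbs and genitalia, every interval lay within those bounds and included 0. Of the 28 sets 9 had a mean above the receptor limit of 5.63, and of the 14 sets 3 did. On the sets below it, a narrow interval says little about the gene.

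**Figure D1:**
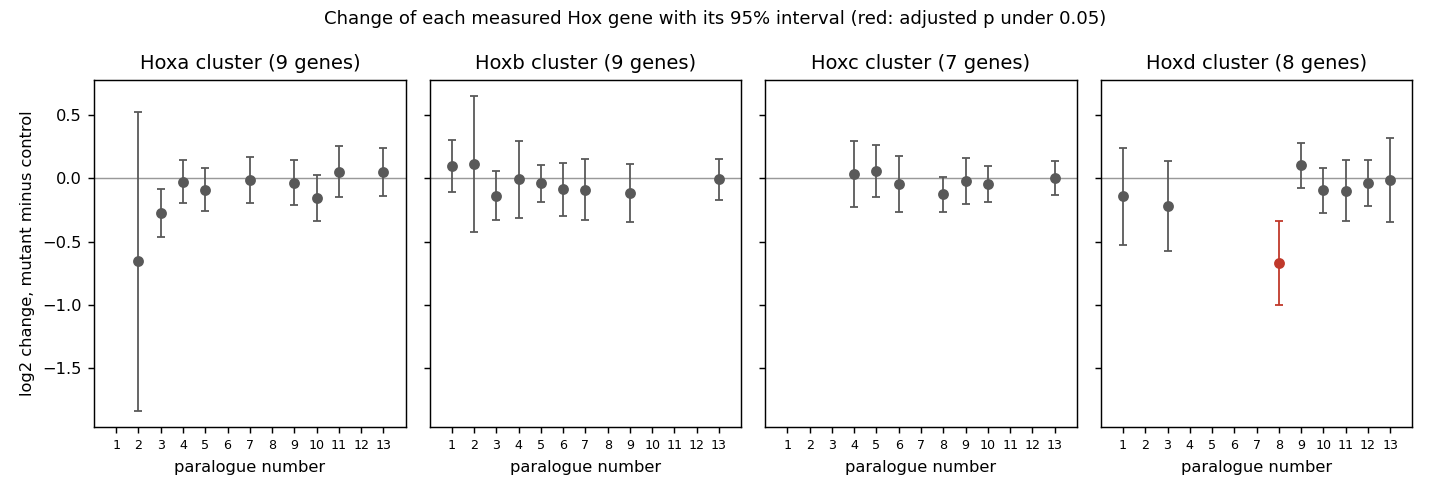
Log2 change (mutant minus control) of each of the 33 measured Hox genes against paralogue number, with a panel for each cluster and bars for the 95% interval from limma. Hoxd8, in red, at −0.67, is the only gene past an adjusted p of 0.05, and the interval of Hoxa2 reaches from −1.84 to 0.53.

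Hoxd8 lies between Hoxd9 and Hoxd3 and Hoxd4 in its cluster. On the brighter of its sets, 1431099_at, controls 1 to 4 had log2 levels of 6.84, 7.42, 7.34 and 7.43, and mutants 1 to 4 had 6.72, 6.82, 6.47 and 6.34. Control 1 was the low control, mutant 2 came closest to it, and no mutant reached any control. Controls averaged 7.26 ± 0.28 and mutants 6.59 ± 0.22 (SD, n = 4 each). The mutant level was 1.59-fold lower, with a log2 change of −0.67 (SE 0.149, 95% interval −1.0 to −0.33, limma adjusted p = 0.0221). Exact permutation of the 8 arrays, two-sided, gave p = 0.0286, which is the lowest value this design allows.

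A second Hoxd8 set, 1433638_s_at, read 5.91, 6.83, 6.46 and 6.34 on controls and 6.16, 5.89, 5.68 and 5.69 on mutants. Here control 1 lay below mutant 1, so the groups overlapped. The log2 change was −0.53 (SE 0.181) and did not pass over all 45037 probe sets (limma adjusted p = 0.158), where the first set kept an adjusted p of 0.0397. The mean of both sets gave −0.60 (adjusted p = 0.045).

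The Hoxd8 call depended on single arrays. It was lost without control 2 (−0.61, adjusted p = 0.0661), control 3 (−0.64, 0.0559), control 4 (−0.61, 0.061), mutant 3 (−0.63, 0.065) or mutant 4 (−0.58, 0.062), and it was kept without control 1 (−0.81, 0.00443), mutant 1 (−0.71, 0.0325) or mutant 2 (−0.74, 0.0272). Markers of several cell types moved on the same arrays, where 5.52% of all genes fell and 4.2% rose. Of 8 differentiated muscle markers 6 fell, with a list mean of 11.15 to 11.47 in controls and 10.36 to 10.69 in mutants. Of 10 neuron markers 5 fell and 2 rose (7.12 to 7.37 and 6.85 to 6.96). Schwann cell and glial markers fell in 2 of 4 cases (8.60 to 8.97 and 8.20 to 8.57), leukocyte markers in 3 of 6 (7.46 to 7.58 and 6.95 to 7.48), and endothelial markers rose in 2 of 6 (7.71 to 7.82 and 7.93 to 8.28). The list of 8 muscle progenitor markers, with 1 member higher and 1 lower, averaged 9.10 to 9.20 in controls and 8.97 to 9.18 in mutants. Fewer members passed in the other lists, and 1 call in a list this short says little about the cell type. Of 8 epithelial markers 1 fell (10.18 to 10.41 and 9.78 to 10.33), as did 1 of 5 pharyngeal endoderm and thyroid markers (7.16 to 7.33 and 6.94 to 7.19). Among cartilage markers 1 of 5 rose, among first arch mesenchyme markers 1 of 7, among tongue mesenchyme markers 1 of 6, and among erythroid markers 0 of 4 were called in limma, with 0 at an unadjusted p under 0.05. The part of these cell types in the fall of Hoxd8 was not tested.

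**Figure D2:**
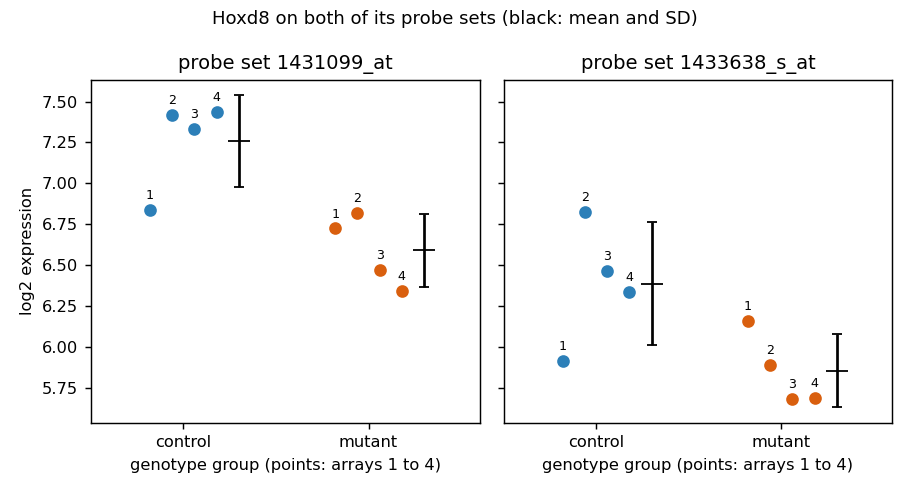
Log2 expression of Hoxd8 on each array for its probe sets 1431099_at and 1433638_s_at, with points numbered by replicate and black bars for the group mean and SD (n = 4 each). On 1431099_at all mutants lie below all controls, and on 1433638_s_at control 1, at 5.91, lies below mutant 1, at 6.16.

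The genes beside Hoxd8 did not pass. Hoxd9 read 5.55, 5.67, 5.75 and 5.68 on controls and 5.94, 5.81, 5.57 and 5.74 on mutants, a log2 change of 0.10 (SE 0.080, adjusted p = 0.496). Hoxd3 read 5.39, 5.68, 6.23 and 5.71 on controls and 5.70, 5.62, 5.37 and 5.45 on mutants, a change of −0.22 (SE 0.158, adjusted p = 0.457). The groups overlapped in both genes, and control 3 was the highest array for Hoxd3. The sets that name Hoxd4 together with Hoxd3 differed by −0.05 and 0.04. The other Hoxd genes ran from −0.14 for Hoxd1 to −0.01 for Hoxd13, with Hoxd10 at −0.09, Hoxd11 at −0.10 and Hoxd12 at −0.04. Over the 8 measured Hoxd genes the median was −0.10.

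Promoters of Hoxd8, of its neighbours Hoxd9 and Hoxd3, and of Hoxa3, the gene with the next smallest p, are shown. They are the start regions of the called gene, of the uncalled genes on either side and of the nearest uncalled gene by p. Hoxd9 was chosen after its values were seen. The promoters are RefSeq windows of GRCm38.p6 that hold 250 bases before and 50 bases from the gene start. The windows are chr2:74704365-74704664 for Hoxd8, chr2:74697513-74697812 for Hoxd9 and chr2:74711743-74712042 for Hoxd3, each on the plus strand, and chr6:52213018-52213317 for Hoxa3 on the minus strand. Capitals mark matches on either strand to AGGTCA (retinoid receptor half-site), CAGAC (Smad box), TGACAG (site of the Meis, Pknox and Tgif factors) or TGATNNAT (joint site of Hox and Pbx).
Hoxd8: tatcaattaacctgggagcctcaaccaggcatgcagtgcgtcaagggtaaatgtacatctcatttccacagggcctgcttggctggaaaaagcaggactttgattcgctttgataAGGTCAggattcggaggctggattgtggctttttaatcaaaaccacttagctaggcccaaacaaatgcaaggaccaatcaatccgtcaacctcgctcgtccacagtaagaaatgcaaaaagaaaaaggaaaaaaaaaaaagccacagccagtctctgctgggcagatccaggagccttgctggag
Hoxd9: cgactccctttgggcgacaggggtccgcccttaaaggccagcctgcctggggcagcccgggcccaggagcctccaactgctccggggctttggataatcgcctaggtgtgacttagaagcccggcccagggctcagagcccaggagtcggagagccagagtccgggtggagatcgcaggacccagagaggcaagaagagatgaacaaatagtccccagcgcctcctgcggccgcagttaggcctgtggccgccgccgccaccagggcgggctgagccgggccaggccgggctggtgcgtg
Hoxd3: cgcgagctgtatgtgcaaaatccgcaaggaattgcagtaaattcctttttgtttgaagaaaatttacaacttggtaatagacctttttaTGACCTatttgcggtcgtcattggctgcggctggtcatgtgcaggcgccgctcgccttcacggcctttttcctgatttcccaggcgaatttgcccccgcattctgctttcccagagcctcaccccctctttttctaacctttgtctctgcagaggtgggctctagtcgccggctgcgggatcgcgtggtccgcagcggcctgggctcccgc
Hoxa3: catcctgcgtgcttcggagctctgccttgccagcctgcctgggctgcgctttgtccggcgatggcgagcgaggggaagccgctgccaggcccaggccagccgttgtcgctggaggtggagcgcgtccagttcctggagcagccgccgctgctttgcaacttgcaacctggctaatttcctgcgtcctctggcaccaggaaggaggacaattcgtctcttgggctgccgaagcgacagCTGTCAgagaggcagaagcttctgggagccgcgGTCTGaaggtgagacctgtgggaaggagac
The Hoxd8 window holds 1 AGGTCA, at −135 from the gene start, and no other match. Hoxd3 holds 1 AGGTCA on the other strand, Hoxa3 holds 1 CAGAC and 1 TGACAG, Hoxd9 holds none, and no 2 matches overlap. The Hoxd8 window has 6 CG dinucleotides, against 20 in each of the other three printed and a median of 7 over all windows. Windows of Hoxa10, which is among the 6 Hox genes with the smallest p but is not printed, have 12 and 21. The one with 12 holds 2 CAGAC. Among 32851 promoter windows of the same length, 16.3% hold AGGTCA, 49.6% CAGAC, 19.2% TGACAG and 8.85% TGATNNAT. Of the 24 windows of Hox genes, 7 hold AGGTCA (29.2%), 9 CAGAC (37.5%), 2 TGACAG (8.33%) and 4 TGATNNAT (16.7%). These matches describe letters in the windows and are not shown to be bound.

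Among the other genes of paralogue number 8, which share their place in the cluster with Hoxd8, Hoxc8 read 3.04, 3.18, 3.17 and 3.18 on controls and 3.11, 3.07, 2.99 and 2.90 on mutants. Control 1 lay below 2 mutants. The log2 change of −0.13 (SE 0.062) did not pass (adjusted p = 0.259), and its values lay far under the 5.63 of the receptor sets. The set that names both Hoxb8 and Hoxb7, 1452493_s_at, read 3.66, 3.75, 3.78 and 3.72 on controls and 3.51, 3.50, 3.58 and 3.28 on mutants. Its groups did not overlap, with mutants lower, as in 8.87% of all genes. The change of −0.26 (SE 0.071) had a limma adjusted p of 0.0835 over all probe sets. All values of this set also lay far under 5.63, and the set of Hoxb7 alone differed by −0.09 with overlapping groups.

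Group 3 genes, which pattern the third arch and its derivatives, include Hoxa3, the factor required for the thymus and parathyroid. Hoxa3 read 6.24, 6.42, 6.47 and 6.50 on controls and 6.30, 6.17, 5.94 and 6.14 on mutants. Mutant 1 lay above control 1 and the other mutants below every control. The log2 change was −0.27 (SE 0.085, 95% interval −0.46 to −0.08), with an unadjusted p of 0.0102 and a limma adjusted p of 0.0794. Without control 1 it was −0.33 and passed (adjusted p = 0.0433), and over the 19 alternatives its adjusted p ran from 0.0433 to 0.28. RefSeq models of Hoxa3 span Hoxa4, Hoxa5 and Hoxa6, and 3 further Hoxa3 sets differed by −0.40, −0.11 and −0.05, each with overlapping groups.

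Hoxb3 on its brightest set, 1427605_at, read 6.08, 6.13, 6.18 and 6.40 on controls and 6.25, 6.02, 6.02 and 5.97 on mutants. The change was −0.14 (SE 0.086, adjusted p = 0.378). All 3 genes of group 3 therefore had a change below 0, and none was called.

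Hoxa2 and Hoxb2, the measured genes of paralogue number 2, were highest in control 3 among controls and in mutant 1 among mutants. Hoxa2, which gives second-arch neural crest its identity, read 4.28, 4.93, 6.95 and 4.99 on controls and 5.56, 4.23, 4.33 and 4.41 on mutants. All of these but the 6.95 of control 3 lay below the receptor limit. Control 3 stood 1.97 above the next control, a gap exceeded by 2 of all 18193 genes, Crh, which encodes the corticotropin-releasing hormone, and Tcf24, which encodes a basic helix-loop-helix factor. Those 2 genes are named after their values were seen, and Tcf24 too was high in control 3 (8.09) and mutant 1 (7.57) against 4.90 to 5.49 elsewhere. The log2 change of Hoxa2 between the groups was −0.65 (SE 0.526, 95% interval −1.84 to 0.53, adjusted p = 0.505). It was −0.10 without control 3 and −0.96 without mutant 1, so its size depended on control 3.

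Hoxb2, which is active in the hindbrain and the neural crest of the second arch, read 6.45, 7.11, 7.51 and 6.82 on controls and 7.58, 7.07, 6.65 and 7.05 on mutants. The change was 0.12 (SE 0.239, adjusted p = 0.817), 0.30 without control 3 and −0.05 without mutant 1. A second Hoxb3 set, 1456229_at, followed the same order, with 4.16, 5.10, 6.58 and 4.69 on controls and 5.76, 4.91, 4.44 and 4.77 on mutants. The Hoxa3 set 1427433_s_at also peaked there, at 5.51 in control 3 against 4.18 to 4.62 in the other controls and at 4.70 in mutant 1 against 4.01 to 4.21. The brightest sets of Hoxa3 and Hoxb3 did not share this, since control 4 was their highest control.

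Hoxd1 read 3.51, 3.48, 4.31 and 3.45 on controls and 3.54, 3.54, 3.55 and 3.55 on mutants. All 8 values lay below the receptor limit. Control 3 alone was high, and the mutant values agreed within an SD of 0.0028. The change was −0.14 (SE 0.171, adjusted p = 0.67) and turned to 0.07 without control 3. For Hoxd3 the change was −0.06 without control 3, against −0.22 with it. Hoxa2, Hoxb2, Hoxa5, Hoxc4, Hoxd3 and Hoxd9 were highest in control 3 among controls and in mutant 1 among mutants, 6 of 33 Hox genes (18.2%) against 11.7% of all genes. The pharyngeal endoderm and thyroid list averaged 7.32 in control 3 and 7.16 to 7.33 in the other controls, and the neuron list 7.12 and 7.16 to 7.37. Single members could differ from their list. Pax1, a gene of the pharyngeal pouches named after its values were seen, read 5.51, 5.87, 6.46 and 6.04 on controls and 5.91, 5.78, 5.47 and 5.67 on mutants. Control 3 was thus its highest control and mutant 1 its highest mutant. Of the other pharyngeal endoderm and thyroid markers, Hhex also peaked in control 3 and mutant 1 within its groups. Foxa2 was lowest there, at 9.02 in control 3 and 8.42 in mutant 1. Pax9 and Nkx2-1 peaked on other arrays. The part of other tissue in the Hoxa2 and Hoxb2 values was not tested.

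**Figure D3:**
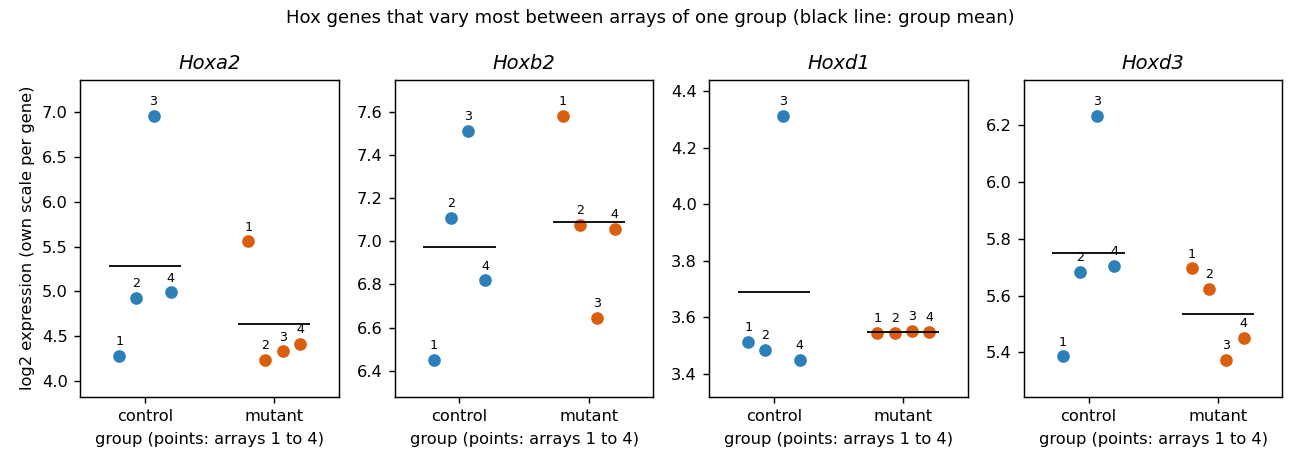
Log2 expression on each array of Hoxa2, Hoxb2, Hoxd1 and Hoxd3, the 4 Hox genes with the widest spread within groups, each on its own axis, with points numbered by replicate and a black line for the group mean. Control 3 is the highest control in each panel, at 6.95 for Hoxa2, and mutant 1 is the highest mutant for Hoxa2, Hoxb2 and Hoxd3.

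Apart from these 4 genes and Hoxd8, the within-group SD of the Hox genes ran from 0.080 to 0.249, beside a median of 0.103 over all genes. Within the Hoxa cluster, Hoxa10 read 3.30, 3.55, 3.61 and 3.62 on controls and 3.49, 3.34, 3.29 and 3.35 on mutants, a change of −0.15 (SE 0.081, adjusted p = 0.287). Hoxa5 and Hoxa7, which pattern the neck and upper trunk, differed by −0.09 and −0.01, Hoxa4 by −0.03, Hoxa9 by −0.03 and Hoxa11 and Hoxa13 by 0.05 each. The Hoxa median was −0.03. Hoxa5, Hoxa7 and Hoxa9 had means above every array median on the sets used. The second sets of Hoxa5 and Hoxa9 lay below the receptor limit. Their means were 3.53 and 3.90 in controls and 3.51 and 3.99 in mutants.

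In the Hoxb cluster, whose median was −0.04, Hoxb9 differed by −0.11 (SE 0.102, adjusted p = 0.557) and Hoxb1, a gene of the hindbrain, by 0.10 (SE 0.091, adjusted p = 0.566). Hoxb4 differed by −0.01, Hoxb5 by −0.04, Hoxb6 and Hoxb7 by −0.09 each and Hoxb13 by −0.01. The Hoxc genes had a median of −0.02 and a range from −0.13 for Hoxc8 to 0.06 for Hoxc5. Hoxc9, the single one of them with a mean above every array median, read 7.19 to 7.45 on controls and 7.12 to 7.39 on mutants. Hoxc10 differed by −0.04 (SE 0.062, adjusted p = 0.719) and Hoxc4, Hoxc6 and Hoxc13 by 0.03, −0.05 and 0.00.

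By position along the clusters, the median change was −0.08 over the 10 genes of numbers 1 to 4, −0.09 over the 9 genes of numbers 5 to 8 and −0.03 over the 14 genes of numbers 9 to 13. Called genes numbered 0, 1 and 0 in these bands (0%, 11.1% and 0%), beside 9.72% of all genes. With so few genes in each, these counts do not set a band apart. Of all 33 changes 25 were below 0 (75.8%), against 53.4% of all genes. With each array centred on its median, which moves all genes alike, 63.6% of the Hox genes and 48% of all genes were below 0. Without control 1 the shares were 84.8% and 56.6%, and without control 4 they were 60.6% and 48.9%. Control 1 was the lowest control for 21 of the 33 Hox genes. Its median Hox deviation from the control mean was −0.14, beside −0.03 for all genes and −0.06 for genes under the receptor limit. Mutant 4 was the lowest mutant for 17 of them, with a median deviation of −0.10 from the mutant mean. The 15 further probe sets of Hox genes, spread over 11 genes, gave no call, and their changes ran from −0.53 to 0.09. In 6 genes a further set took the other direction. These sets differed by 0.04 for Hoxa10, 0.09 for Hoxa9, 0.07 for Hoxb4, 0.01 for Hoxc6 and 0.00 for Hoxa4, and by −0.01 and −0.11 for Hoxc5.

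**Figure D4:**
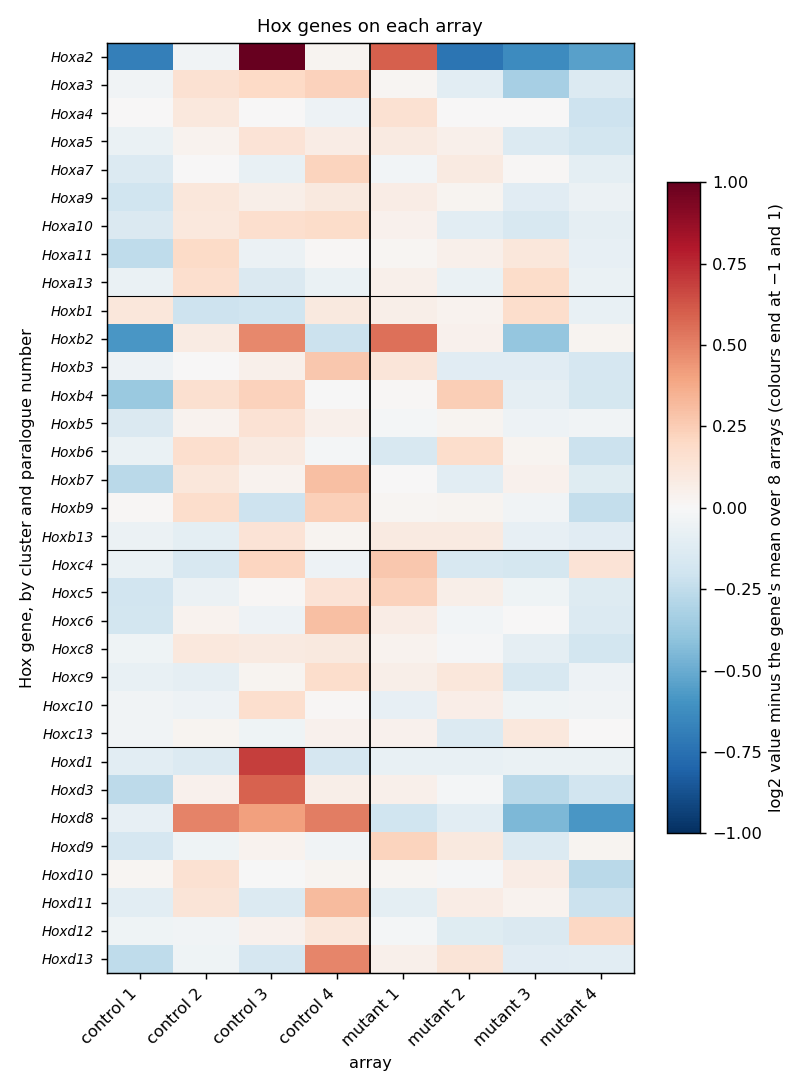
Colour map of the 33 Hox genes (rows, by cluster and paralogue number) on the 8 arrays (columns), where colour is the log2 value minus the gene's mean over 8 arrays and ends at −1 and 1. Hoxd8 is red in controls 2 to 4 and blue in the mutants, but control 1 (6.84) and mutant 2 (6.82) are both pale, near its mean of 6.92. Hoxa2 is darkest in control 3, and most other rows stay pale.

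Cofactors and regulators of Hox genes were compared in the same way. Their lists were drawn up with earlier results of the data known. Most of their genes were brighter than the receptor limit, which 71.5% of all genes reached. In a separate fit of the 13000 genes at or above it, 2106 were called, a larger share than the 9.72% of all genes. Of 8 measured cofactor genes, which encode the homeodomain proteins that bind DNA together with Hox proteins, 2 rose and 0 fell (25% called, beside 9.72% of all genes, of which 4.2% rose). Meis2 read 11.20, 11.34, 11.49 and 11.09 on controls and 11.78, 11.73, 11.61 and 11.61 on mutants, and its groups did not overlap. Its log2 change was 0.40 (SE 0.088, adjusted p = 0.0196). Pbx2 rose by 0.26 (SE 0.054, adjusted p = 0.0164), from 10.11 to 10.24 in controls to 10.38 to 10.52 in mutants. Meis2 lost its call without mutant 2 (0.39, adjusted p = 0.0593), and with sets of mixed specificity left out (0.37, 0.0923). Pbx2 lost its call without control 2 (0.24, adjusted p = 0.0539). The median change over the cofactors was 0.14.

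Among 26 measured regulators of Hox clusters, 7 rose and 1 fell (30.8% called, beside 9.72% of all genes), with a median change of 0.12. The list holds many chromatin genes, among them the 3 risers with the smallest p. Cbx2, a Polycomb protein that binds methylated histone H3, read 8.64 to 8.77 on controls and 9.03 to 9.15 on mutants, a change of 0.41 (SE 0.051, adjusted p = 0.00149). Phc1, another Polycomb protein, rose by 0.37 (SE 0.051, adjusted p = 0.00228). Kmt2a, the trithorax-group methyltransferase that sustains Hox transcription, rose by 0.37 (SE 0.063, adjusted p = 0.00578). Groups did not overlap in any of the 3. The other risers were Ezh2, Tgif1, Tgif2 and Cdx1. Further Polycomb genes of the list did not pass, such as Bmi1 at 0.09, Rnf2 at 0.04, Ring1 at 0.06, Suz12 at 0.11 and Ezh1 at −0.05.

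Egr2, the zinc-finger factor that drives hindbrain Hox genes, fell by 0.36 on the log2 scale (SE 0.060, adjusted p = 0.00582), on a set whose means, 4.80 and 4.45, lay below the receptor limit.

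Genes of retinoic acid, the signal that activates anterior Hox genes, rose in 4 and fell in 3 of 16 measured cases. Aldh1a3, encoding an enzyme of retinoic acid synthesis, read 8.97 to 9.13 on controls and 6.95 to 7.70 on mutants, a change of −1.65 (SE 0.136, adjusted p = 0.000189). With the mean of all its probe sets the change was −0.99 (adjusted p = 0.00141). Aldh1a2, encoding the main embryonic enzyme of that synthesis, differed the other way by 1.34 (SE 0.240, adjusted p = 0.0081), and Rarb, a retinoic acid receptor gene that retinoic acid itself induces, by 1.54 (SE 0.240, adjusted p = 0.00418). Rxrg, a partner receptor, changed by −0.46 (SE 0.073, adjusted p = 0.0045). Among genes at or above the receptor limit, 2106 of 13000 were called in a fit of their own, a larger share than 9.72%. Over regulators and retinoic acid genes together, 15 of 42 were called (35.7%) beside the 9.72% of all genes, dim ones included. That count was 9 without mutant 1, mutant 2 or mutant 3. Several of the cell type lists given beside Hoxd8 moved with these genes too, and their part in these changes was not tested.

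**Figure D5:**
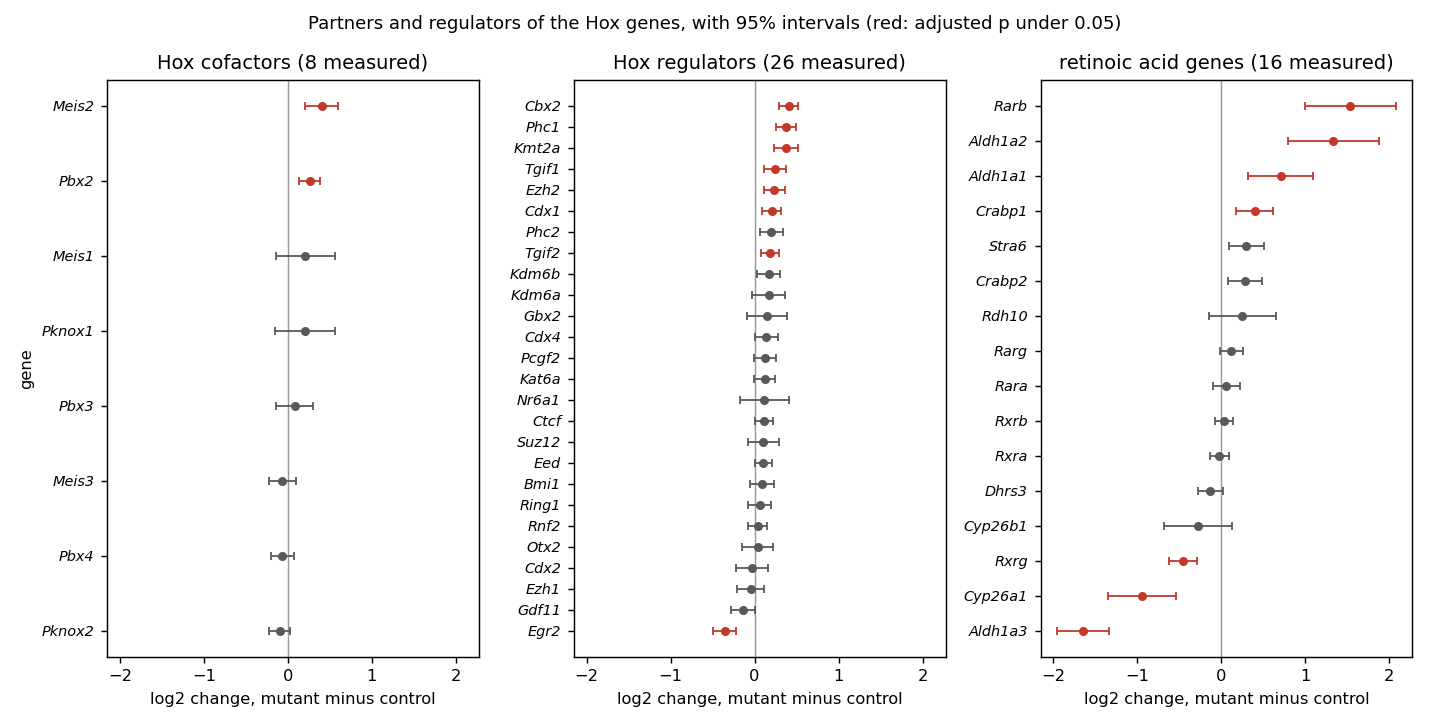
Log2 change (mutant minus control) with 95% intervals of 8 Hox cofactor genes, 26 Hox regulators and 16 retinoic acid genes, with called genes in red. Cbx2, Phc1 and Kmt2a lie at about 0.4, Rarb and Aldh1a2 lie at 1.54 and 1.34, and Aldh1a3 lies at −1.65.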

How the data were processed

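Expression was measured on single-channel Affymetrix arrays, 1 for each of 4 control and 4 mutant tongue buds. The authors deposited log2 values for each probe set, and the submitters' processing notes name RMA without a version. RMA aligns the arrays, so shifts common to many genes can be lost. No unit other than log2 was used.

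Of 45101 probe sets, 34945 named 1 gene in the platform annotation. The brightest set stood for each gene, without a filter. All 33 Hox symbols matched RefSeq. Mutants were tested against controls by a moderated two-sided test (limma 3.58.1, lmFit and eBayes, R 4.3.3). Adjusted p-values follow Benjamini and Hochberg across all 18193 genes, and a call needs one under 0.05. SEs and intervals use the moderated spread. The procedure was tested on simulated data.

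The members and lists were chosen with earlier results of these data known. Hox genes chosen for detail were those called, those without group overlap, those whose sets disagreed and the 3 with the smallest p in each cluster. Of these, Hoxa4, Hoxa9, Hoxb4, Hoxc5 and Hoxc6 are given mainly by their changes. From the other lists, the 4 called members with the smallest p were chosen. Of the gene-neighbour list 11 of 28 symbols had no set of their own and were not analysed here. The labels number the buds without naming litters, so p-values measure the spread between these samples. Same-numbered controls and mutants did not deviate together, with correlations of −0.4 to 0.0167 over genes, so numbers were not taken as pairs. The 19 alternatives covered the replicate block, normalization, filters, the choice of probe set, the variance model and arrays left out.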

Additional observations from a re-analysis of the deposited data

Results flagged for a closer look

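Of 100 groups of 4 arrays examined, 66 of them of Hox genes, 5 had 1 array far from the other 3. Chance alone gives such an array in about 1 group in 20. The remaining groups were of cofactor, regulator and retinoic acid genes that were called. The 5 of 100 is therefore not compared with that rate. All 5 were of Hox genes. Hoxa2 read 5.56 in mutant 1, with the next mutant at 4.41. Hoxd1 read 4.31 in control 3, with the next control at 3.51. Control 1 was the low array in the other 3 cases. It read 6.84 for Hoxd8 with the next control at 7.34, 6.48 for Hoxa9 with the next at 6.75, and 3.04 for Hoxc8 with the next at 3.17.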

How the results depend on the processing

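Under 19 alternatives the median change of the Hox genes ran from −0.10 to −0.01 and moved by less than its spread between arrays of a group (SD 0.0845). Of 562 recomputed values of the 32 uncalled Hox genes, 1 became a call (Hoxa3 without control 1). Hoxd8 kept its direction throughout and its call in 12 of 19. It was −0.67 without variance moderation (adjusted p = 0.0874) and −0.67 with the replicate block (0.0664), and −0.81 to −0.58 with 1 array left out. The number of Hox genes called was 0 in limma with the replicate block and 0 without moderation, with 2 at an unadjusted p under 0.05 in each, and 0 to 2 with 1 array left out. With the replicate block 966 genes were called in all, against 1768, cofactors numbered 0 (2 at an unadjusted p under 0.05) and regulators with retinoic acid genes 9. Cofactors numbered 1 without moderation, 1 with sets of mixed specificity left out, 1 without controls 1 and 3 together, and 1 to 2 with 1 array left out. The regulator count was 9 with all probe sets adjusted together and 9 to 13 with 1 array left out. Kmt2a, without controls 1 and 3 (adjusted p = 0.0509), and Aldh1a2, without moderation or with the block (up to 0.0562), lost their calls. Dim sets limit what can be seen in 21 of the 33 Hox genes.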

Other observations

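Genes that flank the Hox clusters, with the even-skipped homologues Evx1 and Evx2 at cluster ends and antisense transcripts within them, showed no call among 17 measured members in limma, with 2 at an unadjusted p under 0.05. Of all genes 9.72% were called and 23.8% had an unadjusted p under 0.05. The lack of a call among 17 genes therefore says little about the flanks. Skap2, which lies beside the Hoxa cluster, differed by −0.44 (adjusted p = 0.132) and Cbx5, beside the Hoxc cluster, by 0.29 (adjusted p = 0.143). Evx1 differed by −0.05 and Evx2 by 0.04, and the antisense transcripts Hoxa11os, Hoxb5os and Hoxd3os1 by −0.03, 0.08 and −0.03. Among 6 ParaHox genes, the sister family of the Hox clusters, Cdx1 rose by 0.20 (SE 0.051, adjusted p = 0.0352) on a set below the receptor limit, with means of 4.66 and 4.86. Gsx1, Gsx2, Pdx1 and Cdx2 differed by 0.01, −0.09, −0.06 and −0.03 and did not pass, nor did Cdx4 at 0.14 (adjusted p = 0.206).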
